A study of Arabidopsis thaliana with 24 samples.

Results

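The gene promoters of the Arabidopsis thaliana accession Vash-1 were compared with those of Shigu-2, Kly-1 and Altenb-2, and 1038 genes whose promoter level in Vash-1 lay 2-fold or more from the mean of the other 3 accessions are described here. They were chosen among 13823 genes that reached 5 CPM (count per 1000000 tags) in at least 1 accession, out of 20836 genes with any listed start site cluster at their promoter. Of these genes, 483 were higher in Vash-1, which is 3.49% of the genes at 5 CPM, and 555 were lower, which is 4.02%. The same difference chose the genes and measures them, so it is given as a description, with no test. A stricter subset stood 2-fold or more beyond each of the other accessions: 189 genes (1.37%) lay above every other set and 205 genes (1.48%) below every other set.

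The start sites come from CAGE, a method that selects capped 5′ ends of RNA and sequences a tag from each, run on wild-type aerial parts of 2-week-old seedlings. The labels give 24 libraries in 8 groups of 3 replicates. Each accession was sampled as control plants, kept at 22 °C in continuous light (40 µE), and after 24 h at 4 °C under 140 µE. The deposited clusters come as 4 separately numbered sets, named here by the initials they share with the accessions, and no set names a library, treatment or replicate. Each accession therefore has 1 pooled value per promoter, so no SD, n or p-value can be given. Accession and the mix of control and treated libraries cannot be told apart in any difference below, because the sources used here do not give the libraries behind each set. In these whole-tissue pools, fewer cells of a type and less RNA per cell cannot be told apart either.

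A promoter is where RNA polymerase II is assembled and directed to a start site. Many plant promoters with a focused start carry a TATA box a short distance upstream of it, while broad promoters, common among constitutively used genes, often lack one. The start itself usually falls on a purine that follows a pyrimidine. Natural accessions of Arabidopsis differ in promoter sequence, gene content and inserted elements, and immune receptor and specialised metabolism genes are known to vary among them.

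The 4 sets held 22462179 (Altenb-2) to 37230794 (Shigu-2) tags outside the rRNA repeats, and Vash-1 had 24535666. The rRNA repeats took 40.8 to 54.6% of all tags, 53.1% in Vash-1, and levels are scaled to the remaining tags. The smallest listed cluster had 5 tags, so a gene with no listed cluster in Vash-1 can still have a cluster of up to 4 tags, or 0.163 CPM. Where the sets are not named, the values of a gene follow the order Altenb-2, Kly-1, Shigu-2, with Vash-1 last, and a 0 there means no listed cluster. Differences are Vash-1 minus the mean of the other 3 sets on the scale of log2(CPM + 0.5), which understates differences of low genes. Markers of root, flower and seed were at or below 4.32 CPM in every set, and AP1, AP3, PI and LFY had no listed cluster in any. Summed root markers had 4.94, 4.5, 6.02 and 10.2 CPM and summed seed markers 1.42, 0, 0.86 and 4.56 CPM, both highest in Vash-1. Summed floral markers had 1.2, 1.3, 1.37 and 1.34 CPM. The part of tissue make-up in the differences was not tested. Cluster positions are on reference coordinates, so sequence that differs in Vash-1 can lose or move tags, and the part of this in the differences was not tested.

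The reference sequences around the start of some genes far from the other sets are printed first, because they show the promoters that the values below describe. They come from the Columbia reference (TAIR10.1), not from Vash-1, run 5′ to 3′ from 45 bases before the strongest start to the base after it, and carry in capitals any TATAAA or TATATA that begins 40 to 25 bases upstream and the 2 bases at the start, positions −1 and +1. Genes were picked after their values were seen, among those whose start lay close to the annotated gene start. The first 3 were higher in Vash-1:
AT3G44430: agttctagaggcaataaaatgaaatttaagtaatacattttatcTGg
AT3G29639: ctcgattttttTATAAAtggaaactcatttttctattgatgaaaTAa
AT4G04293: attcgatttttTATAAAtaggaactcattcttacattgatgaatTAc
The next 4 were lower in Vash-1:
AT5G21020: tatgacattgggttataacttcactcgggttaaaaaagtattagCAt
AT1G24580: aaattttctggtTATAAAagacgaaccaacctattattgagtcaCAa
RAP2.6: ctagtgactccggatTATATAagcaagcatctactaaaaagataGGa
UGT73B4: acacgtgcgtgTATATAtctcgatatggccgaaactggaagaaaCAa
In the same order they lie at chr3:16068206-16068252, plus strand; chr3:11480039-11480085, minus strand; chr4:2076774-2076820, plus strand; chr5:7138717-7138763, plus strand; chr1:8709919-8709965, plus strand; chr1:16263770-16263816, plus strand; and chr2:6761590-6761636, plus strand. Of these 7 promoters, AT3G44430 and AT5G21020 hold neither motif in that window, and the other 5 hold one that begins 30 to 34 bases before the start. The windows of AT3G29639 and AT4G04293, uncharacterised genes on different chromosomes, were identical at 35 of 47 bases. RAP2.6, an ethylene-response type transcription factor of stress responses, had 9.13, 16.4, 15.2 and 0.448 CPM.

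Among the genes above every other set, the farthest was AT3G00470, an RNA of unknown function (chromosome 3, 10477983 to 10484932, plus strand), with 74.3 CPM in Vash-1 and no listed cluster in the other sets. AT3G44430, whose promoter without a TATA motif is shown above, had 197 CPM in Vash-1 against 1.51 (Altenb-2), 1.26 (Kly-1) and 0.86 (Shigu-2) CPM, a difference of 6.87. Its Vash-1 count was 170.2 (95% interval 140.1 to 209) times the pooled level of the other sets; intervals cover counting error only, since the labels mention no molecular identifiers. The 3 other sets lay close together for this gene and Vash-1 stood alone. AT3G29639 had 60.9 CPM in Vash-1 against 0.401 (Altenb-2) and 1.72 (Shigu-2) CPM and no listed cluster in Kly-1, and AT4G04293 had 20.5 CPM in Vash-1 against 0.401 (Altenb-2) CPM and no listed cluster in Kly-1 and Shigu-2. AT2G16140, AT4G24420 and AT5G53700 were listed in Vash-1 alone, at 21.1, 19.1 and 16.8 CPM, and the last pair encode proteins with RNA-binding motifs. In all, 20 of the 483 higher genes had no listed promoter cluster in any other set. The rule calls every tested gene of that kind higher, so these are all such genes among the 13823 tested.

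DAL1 (AT1G63900, chromosome 1, 23716643 to 23719337, plus strand), which encodes a ubiquitin ligase of the chloroplast envelope, had 30.6 CPM in Vash-1 against 0.312 (Altenb-2) CPM and no listed cluster in Kly-1 and Shigu-2. VSP1 (AT5G24780, chromosome 5, 8507590 to 8509201, minus strand), a vegetative storage protein induced by jasmonate, had 206 CPM in Vash-1 against 34.3 (Altenb-2), 1.4 (Kly-1) and 0.886 (Shigu-2) CPM, and its Vash-1 value was 21.7 (95% interval 20.2 to 23.4) times the pooled level of the others. For VSP1 the other sets were themselves far apart, with Altenb-2 well above Kly-1 and Shigu-2. AT5G28919, AT5G35480 and AT3G12981, without a described function in the annotation, had 1.38, 0.307, 0.322 and 74.9 CPM, 1.38, 0.375, 0.618 and 81.8 CPM and 0, 0, 0.376 and 21.6 CPM.

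Among the genes below every other set, ECS1 (AT1G31580, chromosome 1, 11310997 to 11311989, plus strand) was the farthest, with 5.95 CPM in Vash-1 against 42.5 (Altenb-2), 614 (Kly-1) and 975 (Shigu-2) CPM and a difference of −5.52. The level in Altenb-2 was also far under those in Kly-1 and Shigu-2, although above Vash-1. AAH (AT4G20070, chromosome 4, 10861382 to 10864765, plus strand), the allantoate amidohydrolase that recovers nitrogen from purine breakdown, had 10.8 CPM in Vash-1 against 356 (Altenb-2), 144 (Kly-1) and 173 (Shigu-2) CPM. RLP31, a receptor-like protein, had 0.326 CPM in Vash-1 against 21.8 (Altenb-2), 15.8 (Kly-1) and 22.7 (Shigu-2) CPM. AT5G21020 was strong in the other sets, with 16.3 CPM in Vash-1 against 342 (Altenb-2), 212 (Kly-1) and 314 (Shigu-2) CPM, and its Vash-1 level was 0.0565 (95% interval 0.0511 to 0.0624) times the pooled level of the others. AT1G24580, a RING finger protein gene, had 9.13 CPM in Vash-1 against 200.4 (Altenb-2), 92.7 (Kly-1) and 185 (Shigu-2) CPM. In RLP31, AT5G21020 and AT1G24580 the other accessions lay much closer to each other than to Vash-1.

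AGL99, a MADS-box transcription factor gene, had no listed cluster in Vash-1 against 6.77 (Altenb-2), 12.2 (Kly-1) and 12.7 (Shigu-2) CPM. Of the 555 lower genes, 56 had no listed promoter cluster in Vash-1. The rule calls every tested gene of that kind lower, so these are all such genes among the 13823 tested. The most abundant of them elsewhere included AT5G34869 (0, 42.9, 0 and 0 CPM), AT5G38275 (0, 24, 13.6 and 0 CPM) and CNGC12, a cyclic nucleotide-gated channel of immune signalling (0, 8.22, 29.3 and 0 CPM), each absent from the Altenb-2 list as well. TIR, a Toll/interleukin-1 receptor domain gene, had 75.4, 59.8, 8.73 and 1.47 CPM, but the first 50 bases downstream of its main start occur again in the reference, so its tags may be shared with another copy.

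**Figure D1:**
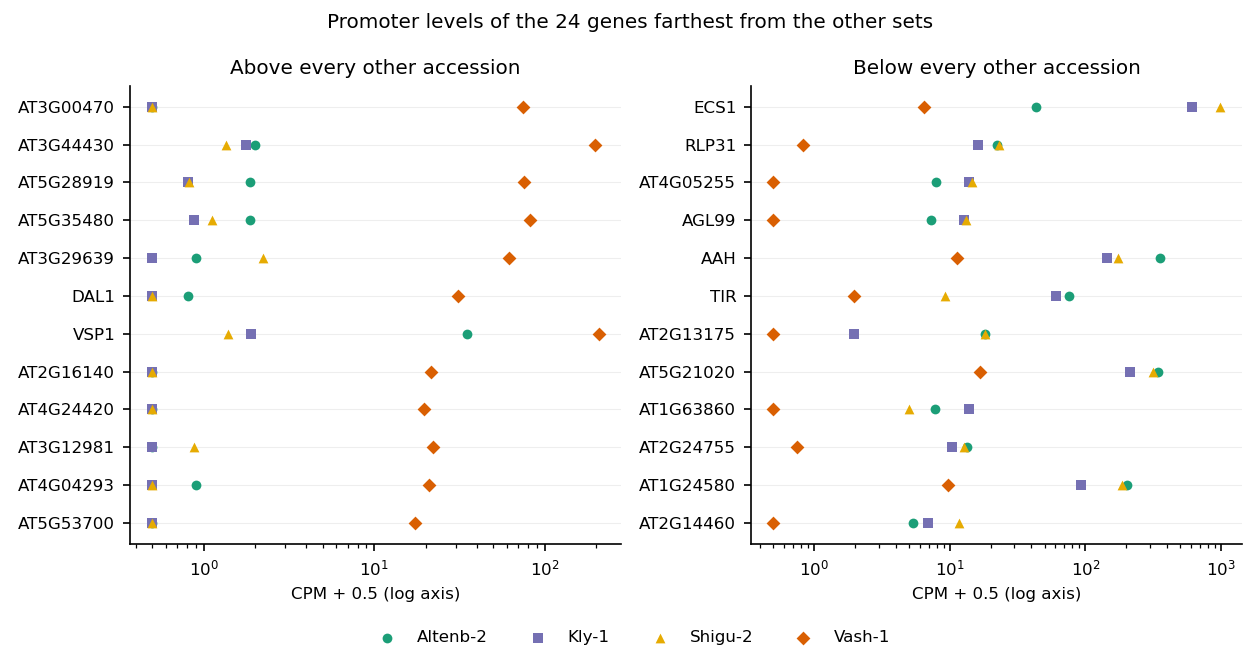
Promoter level (CPM + 0.5, log axis) of the 12 highest and 12 lowest genes among those beyond every other set, 1 point per accession and gene. Vash-1 (diamonds) stands apart from the other 3 points in each row; AT3G44430 reached 197 CPM against at most 1.51 CPM elsewhere, and ECS1 had 5.95 CPM against 975 CPM in Shigu-2.

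The difference had a median of 1.46 over the 483 higher genes and −1.52 over the 555 lower genes, against −0.05 over all 13823. It reached 4-fold in 131 higher and 147 lower genes, and 16-fold in 28 and 12. Not every chosen gene set Vash-1 apart: in 80 of the higher and 111 of the lower genes, Vash-1 lay inside the range of the other 3 sets. Where Vash-1 was not 2-fold beyond every other set, its nearest neighbour was Altenb-2 in 131 of 294 higher and 189 of 350 lower genes, Kly-1 in 90 and 88, and Shigu-2 in 73 and 73. QQS (AT3G30720), an Arabidopsis-specific gene linked to starch levels, is an example: it had 0.935, 62.3, 0.349 and 68.2 CPM, so that Vash-1 and Kly-1 were high together. AT4G04223, a noncoding RNA, had 102, 0.751, 1.05 and 109.6 CPM, with Vash-1 and Altenb-2 high together. The first 50 bases downstream of its main start occur again in the reference, so its tags may be shared with another copy. Such repeats were found in 1.66% of higher and 1.44% of lower genes, against 0.217% of all tested genes.

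**Figure D2:**
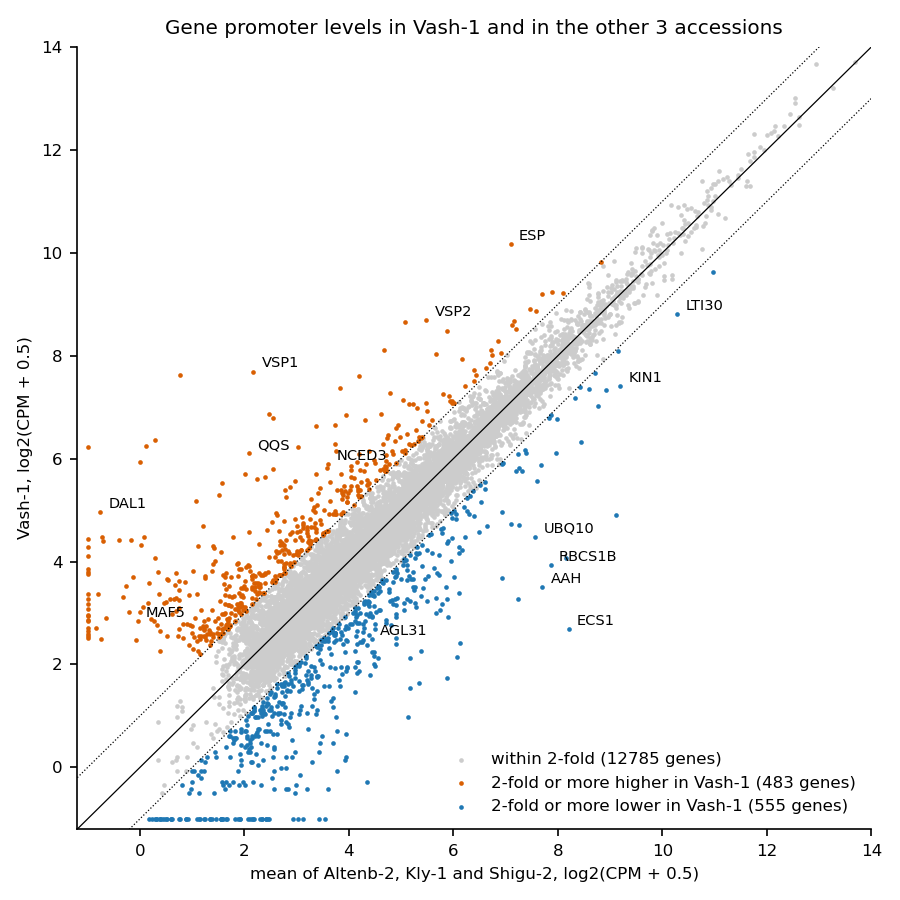
Promoter level of 13823 genes in Vash-1 (vertical) against the mean of Altenb-2, Kly-1 and Shigu-2 (horizontal), both as log2(CPM + 0.5), with the line of equality and dotted lines at 2-fold. The 483 higher genes (orange) and 555 lower genes (blue) include 56 with no listed cluster in Vash-1, which form the row at the bottom.

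Several abundant genes were among those beyond every other set; they were chosen for their level after their values were seen. HPL1 (AT4G15440), hydroperoxide lyase, which makes green leaf volatiles, had 358 CPM in Vash-1 against 50.6 (Altenb-2), 47 (Kly-1) and 82.3 (Shigu-2) CPM. ARGAH2 (AT4G08870), an arginase, had 275 CPM in Vash-1 against 15.4 (Altenb-2), 37.3 (Kly-1) and 27.6 (Shigu-2) CPM. For ARGAH2 the other sets were themselves apart, with Kly-1 more than 2-fold above Altenb-2, and Vash-1 lay above all of them in both genes. NdhL, of the chloroplast NADH dehydrogenase-like complex, had 187, 195, 149.6 and 483 CPM, and TOC75-III, the protein channel of the outer envelope, had 177, 149, 103 and 387 CPM. Of cell wall genes, the extensin EXT3 had 180.1, 184, 212 and 469 CPM. ATSDI1, a gene induced by sulfur deficiency, had 8.1, 11.9, 21.7 and 100 CPM, and SULTR4;2, a vacuolar sulfate transporter, had 37, 24.4, 32.5 and 85.5 CPM.

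On the lower side, CUE1 (AT5G33320), the phosphoenolpyruvate/phosphate translocator of the plastid envelope, had 80 CPM in Vash-1 against 364 (Altenb-2), 330.2 (Kly-1) and 350.2 (Shigu-2) CPM. SUS1, a sucrose synthase, had 381, 349.9, 626 and 129 CPM, and ADH1, alcohol dehydrogenase, had 59.6, 119, 80.9 and 28.9 CPM. In both, the lowest of the other sets was 2-fold or more above Vash-1. FUM2, the cytosolic fumarase, had 96.1, 72.9, 58.9 and 21.8 CPM. The polyubiquitin genes UBQ10 and UBQ3 had 162, 152, 275 and 21.8 CPM and 462, 453, 540.2 and 161 CPM; UBQ10 is often used as a reference gene, and reads from its repeated units can match other polyubiquitin genes. TSPO, an abscisic acid-induced membrane protein gene, had 92, 22.4, 73.1 and 7.87 CPM. NCED3, the key enzyme of abscisic acid synthesis, lay on the higher side, with 23.3, 6.45, 10.4 and 58.9 CPM.

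Cold effector genes, whose products protect cells at low temperature, were 2-fold or more lower in Vash-1 in 5 of 15 cases (33.3%, beside 4.02% of all genes) and higher in none, and all 15 differences were below 0 (median −0.6). Of all genes tested, 7856 of 13823 had a difference below 0. LTI65 (RD29B) had 46.8 CPM in Vash-1 against 253 (Altenb-2), 91.7 (Kly-1) and 306 (Shigu-2) CPM, KIN1 had 169.5 CPM in Vash-1 against 455 (Altenb-2), 579 (Kly-1) and 765 (Shigu-2) CPM, and the dehydrin LTI30 had 449 CPM in Vash-1 against 1022 (Altenb-2), 902 (Kly-1) and 2082 (Shigu-2) CPM. KIN1 and LTI30 were below every other set, while LTI65 in Vash-1 was within 2-fold of Kly-1. COR413IM1, of the chloroplast inner envelope, had 464, 552, 716 and 272 CPM, and GolS3, a galactinol synthase, had 113, 257, 405 and 110.2 CPM. In both, Altenb-2 was within 2-fold of Vash-1. Summed over the list, cold effectors had 11249.5, 14183.3, 21379.5 and 10777.4 CPM, so Altenb-2 was close to Vash-1 and Shigu-2 was the highest set. KIN2, the tandem neighbour and near copy of KIN1, had 1052, 2438, 2882 and 1820.5 CPM and a difference of −0.1, so tags of this pair may be split uncertainly, although the first 50 bases downstream of each main start occur once in the reference. COR15A, COR47 and LTI78 (RD29A) had differences of −0.48, −0.6 and −0.14, and in COR15A and LTI78 the Vash-1 level exceeded that of Altenb-2. With tags scaled by the median of ratios or by TMM (a trimmed mean of ratios), 14 of 15 differences were below 0 and 4 genes were 2-fold lower.

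None of the 8 tested cold regulators lay 2-fold from the mean of the other sets, and 1 was 2-fold lower with the rRNA repeats kept. The transcription factor DREB1A (CBF3) had 4.59, 7.37, 15.7 and 5.79 CPM, ICE1, which acts upstream of it, had 31.3, 37, 34.4 and 32.2 CPM, and HSFC1 had 56.5, 37.5, 62.1 and 26.1 CPM with the largest difference of the list, −0.95. In a list of 5 tested heat shock response genes, 3 were 2-fold or more lower (60%, beside 4.02% of all genes; 2 with the rRNA repeats kept), and all 5 differences were below 0 under each scaling tried. The protein-unfolding chaperone HSP101 had 3.47, 11, 4.67 and 1.79 CPM and HSP90.1 had 3.61, 11.4, 5.61 and 1.87 CPM, but in both Vash-1 was within 2-fold of Altenb-2, and Kly-1 was the highest set. In the wider family of 38 tested heat shock protein genes, 5 were lower (13.2%) and none was higher, 12 differences were above 0, and the median was −0.08. By the median of ratios, 18 of the 38 were above 0 and 1 was 2-fold higher. HSP17.6A, a small heat shock protein of this family, had 8.68, 27.6, 4.38 and 0.734 CPM, below every other set.

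Flavonoid and anthocyanin synthesis genes were higher in 5 of 13 cases (38.5%, beside 3.49% of all genes) and lower in none, with a median difference of 0.76. DFR (AT5G42800), dihydroflavonol reductase, which opens the anthocyanin branch, had 23.5 CPM in Vash-1 against 10.2 (Altenb-2), 2.52 (Kly-1) and 7.36 (Shigu-2) CPM, above every other set. The anthocyanin-decorating enzymes UF3GT, AT5MAT and AT4G14090 had 9.35, 4.91, 3.76 and 18 CPM, 11.8, 1.54, 5.37 and 13 CPM and 15.9, 4.2, 6.8 and 17.8 CPM, and the hydroxylase TT7 had 37.8, 16.5, 26.1 and 57.4 CPM. In these 4 genes Vash-1 was the highest set but Altenb-2 was within 2-fold of it. Steps that open the pathway did not share the difference: chalcone synthase (TT4) had 805, 1069, 2814 and 1322 CPM and chalcone isomerase (TT5) 361, 403, 644 and 355 CPM. Flavanone hydroxylase F3H had 63.9, 104, 176 and 191 CPM, with Shigu-2 near Vash-1. Scaled to all tags with the rRNA repeats kept, 3 of the 13 genes were 2-fold higher.

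**Figure D3:**
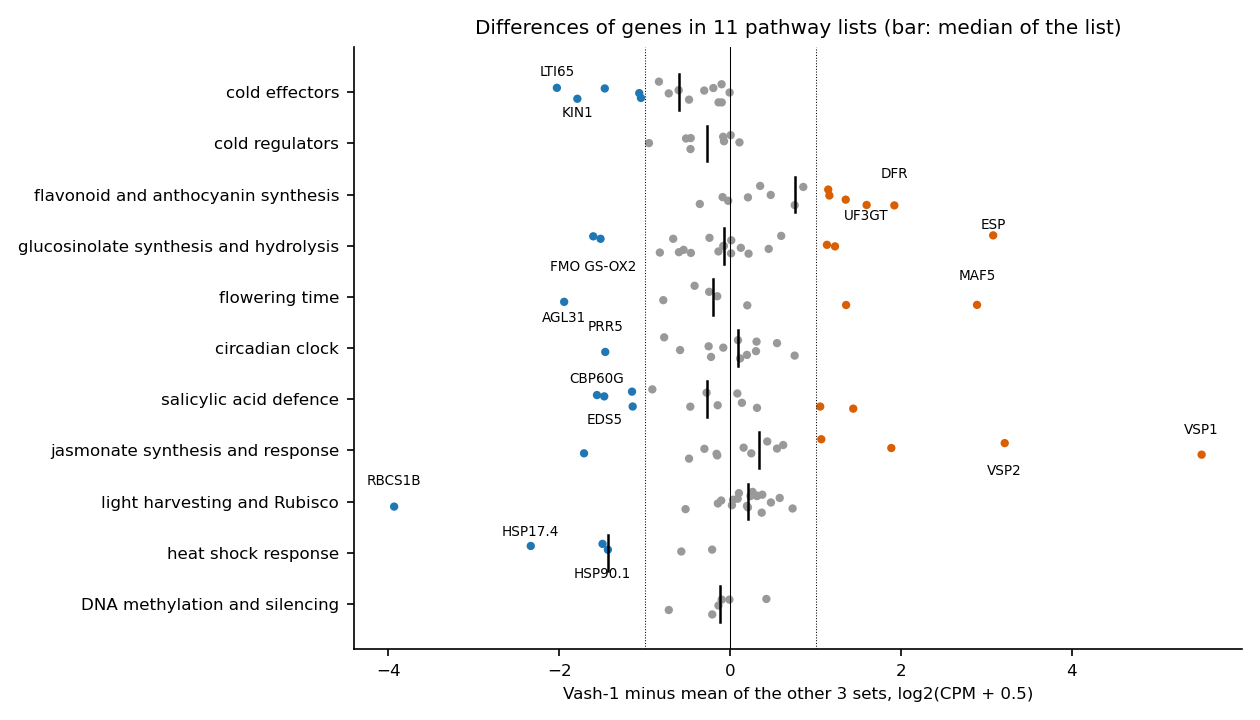
Difference of each tested gene in 11 pathway lists, as Vash-1 minus the mean of the other 3 sets on the log2(CPM + 0.5) scale, with a bar at the median of each list and dotted lines at 2-fold. All 15 cold effectors lie below 0 (14 with median-of-ratios or TMM scaling), 5 flavonoid genes lie beyond the upper line, and VSP1 (5.52) and RBCS1B (−3.93) are the points farthest out.

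Of the jasmonate genes, 4 of 14 were higher and 1 was lower (35.7%, beside 7.51% of all genes), and the ones that differed most were outputs of the hormone, not its synthesis or signalling. VSP2 (AT5G24770), the neighbour of VSP1, had 413 CPM in Vash-1 against 8.37 (Altenb-2), 141 (Kly-1) and 69.8 (Shigu-2) CPM. PDF1.2, a defensin, had 0, 24, 0.43 and 7.83 CPM, so Vash-1 lay between Kly-1 and the others, and against the pooled count of the other sets its difference was −0.0451. JR1, a lectin, had 30.1, 25.9, 21.9 and 54.5 CPM. TAT3, a tyrosine aminotransferase, had 1.2, 14.2, 5.67 and 1.14 CPM and was lower, close to Altenb-2. The synthesis genes LOX2, AOS and OPR3 had differences of 0.62, 0.25 and −0.15, and the regulators MYC2 and JAZ1 −0.48 and −0.3. Another defensin, PDF1.3, had 9.48, 40.5, 49.9 and 154 CPM, above every other set.

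Salicylic acid defence genes were split, with 2 of 13 higher and 4 lower (46.2%, beside 7.51% of all genes; 1 and 3 with the rRNA repeats kept), and none of them lay 2-fold beyond every other set. The activator CBP60G had 4.76, 5.9, 2.61 and 1.1 CPM, the salicylic acid exporter EDS5 3.83, 18.5, 10.4 and 2.98 CPM and the marker PR1 1.69, 4.74, 24.7 and 2.49 CPM. For PR1 the low mean came against a high Shigu-2 value, and Altenb-2 was below Vash-1. The higher genes were PR5, with 37.5, 71.2, 99.6 and 134 CPM, and the immune receptor SNC1, with 288, 1.33, 172 and 122 CPM. In SNC1, Vash-1 was below Altenb-2 and Shigu-2, and the difference turned to −0.25 against the pooled count of the other sets and to −0.87 without Kly-1.

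Immune receptors of the nucleotide-binding leucine-rich repeat class (NLR), which detect pathogen proteins inside cells, were often among the chosen genes. Of 59 at 5 CPM or more, 18 were higher and 13 lower in Vash-1, or 52.5%, beside 7.51% of all genes at 2-fold either way. Of the 59, 7 lay above every other set and 7 below, beside 1.37% and 1.48% of all genes. AT5G41740, of the Toll-type class, had 116 CPM in Vash-1 against 1.65 (Altenb-2), 26.9 (Kly-1) and 2.34 (Shigu-2) CPM. AT1G63880 had 13.1 CPM in Vash-1 and no listed cluster in the other sets, and AT5G35450 had 9.86 CPM in Vash-1 against 0.267 (Altenb-2) CPM and no listed cluster in Kly-1 and Shigu-2. On the other side, AT1G63860 had no listed cluster in Vash-1 against 7.26 (Altenb-2), 13.4 (Kly-1) and 4.54 (Shigu-2) CPM, and RPP8, a downy mildew resistance gene, had 21.8, 43.8, 26.2 and 7.05 CPM. NLR genes occur as near copies that differ among accessions, and tags of copies absent from the reference can be placed on a relative, which was not tested. With the rRNA repeats kept in the scaling, 11 NLR genes were higher and 13 lower.

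The chosen genes were counted by their neighbours along each chromosome, over the tested genes; these shares are a description, with no test. Of the 483 higher genes, 17.6% had a higher gene as a direct neighbour, against 6.84% of all tested genes; of the 555 lower genes, 14.6% had a lower neighbour, against 7.77%. They formed 78 runs of 2 to 4 genes, 41 of higher and 37 of lower genes. One run on chromosome 5 joined AT5G35450, AT5G35460, AT5G35480 and MRU1 (4.14, 0, 0 and 21.9 CPM), with differences of 4.17, 1.46, 6.07 and 4.41. The tested genes on either side of it, AT5G35430 and AT5G35530, had differences of 0.0 and 0.09.

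On chromosome 1, AT1G63880 and DAL1 were higher by 4.76 and 5.72, and the adjacent AT1G63855 and AT1G63860 had differences of −2.71 and −4.03. The direction thus turned between neighbouring NLR-region genes. VSP2 and VSP1 formed another run, and as near copies of each other they may exchange tags, although the first 50 bases downstream of each main start occur once in the reference. DAR4, an NLR-like gene with a LIM domain, and AT5G17900 beside it had 0.89, 0.341, 0 and 11 CPM and 0.623, 0.273, 0.376 and 12.4 CPM. A run of 4 lower genes on chromosome 4, AT4G19500, AT4G19520, AT4G19530 and INDH, had differences of −1.27, −2.39, −3.34 and −1.9. The glutathione transferase genes GSTU4, GSTU3 and GSTU1 formed a run of lower genes, with −1.5, −1.11 and −1.0.

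**Figure D4:**
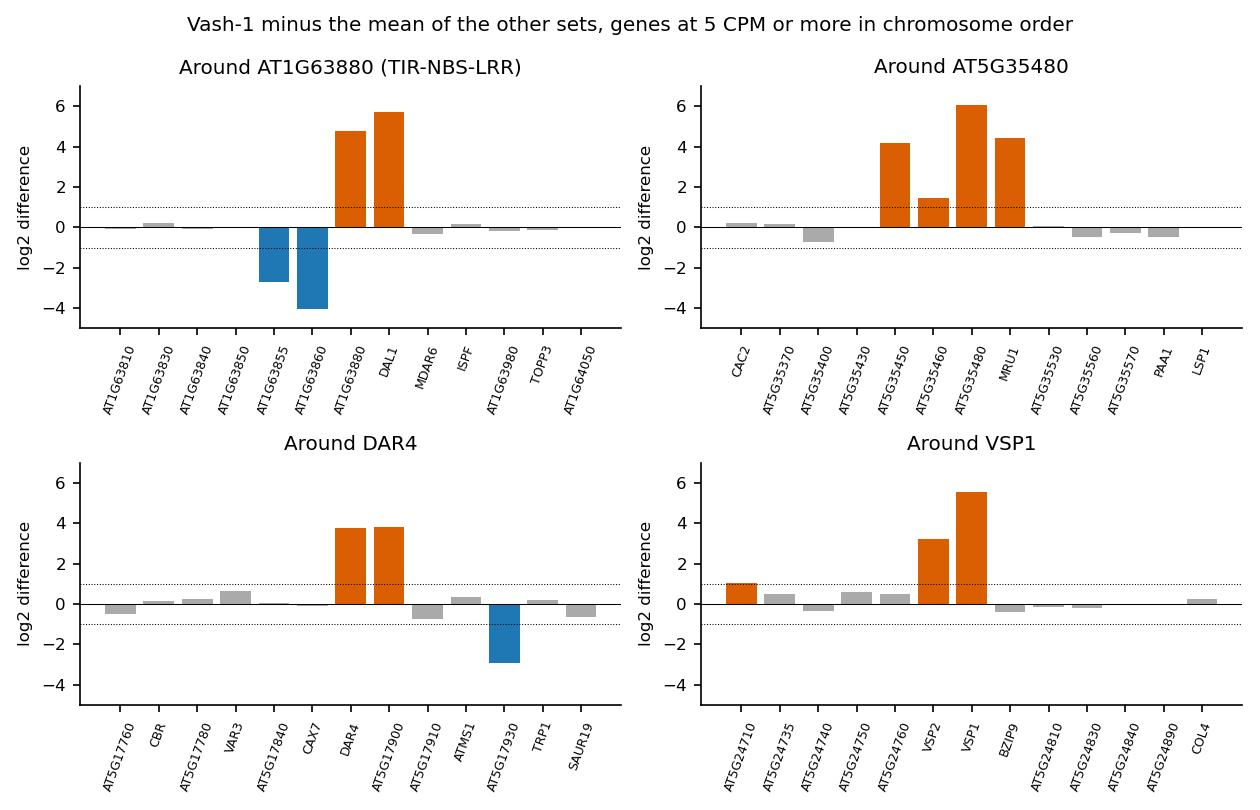
Difference (Vash-1 minus the mean of the other 3 sets, log2 scale) of 13 consecutive tested genes around each of 4 runs, in chromosome order, with dotted lines at 2-fold. Bars of 2 to 4 adjacent genes exceed the line while most genes beside them stay near 0, and around AT1G63880 the bars point both ways.

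Specialised metabolism genes were called in both directions. Of 20 glucosinolate genes, 3 were higher and 2 lower (25%, beside 7.51% of all genes), and with the rRNA repeats kept 1 was higher and 1 lower. ESP, the epithiospecifier protein of glucosinolate breakdown, had 2956, 124, 6.45 and 1156 CPM, so Vash-1 was below Altenb-2 but far above Kly-1 and Shigu-2. NSP1, a nitrile specifier protein of glucosinolate breakdown, had 7.43, 66.4, 16.1 and 44.8 CPM, and UGT74B1, which glucosylates the glucosinolate core, had 2.67, 52.6, 49.9 and 47.3 CPM, where Altenb-2 alone was low and the difference turned to −0.11 without it. AT2G25450, a 2-oxoglutarate-dependent oxygenase of side-chain modification, and FMO GS-OX2, a side-chain S-oxygenase, had 78.5, 47.8, 65.3 and 21.6 CPM and 6.86, 5.6, 4.86 and 1.55 CPM, both below every other set. Of 67 UDP-glycosyltransferases, which attach sugars to small molecules, 10 were higher and 4 lower (20.9%). AT4G15260 had 24.9, 20.1, 14.5 and 107 CPM and UGT78D3, a flavonol arabinosyltransferase, 54.8, 83.3, 78.1 and 245 CPM, whereas AT5G17040 had 39.9, 60.2, 85 and 7.09 CPM and UGT73B4, whose promoter is shown above, 8.5, 29.3, 13.9 and 3.3 CPM. With the rRNA repeats kept, the split was 6 higher and 5 lower.

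Of 34 glutathione transferases, which conjugate toxic or oxidised compounds, 6 were lower and 1 higher (20.6%, beside 7.51% of all genes), while 19 of the 34 differences were above 0 and the median was 0.09. GSTU24 and GSTU25, adjacent copies, had 6.81, 13.5, 4.97 and 1.55 CPM and 2.67, 18.5, 5.45 and 1.3 CPM, and GSTU15 had 0, 10.5, 6.31 and 12.6 CPM, where Altenb-2 alone had no listed cluster. Of 84 cytochrome P450 genes, 6 were higher and 7 lower (15.5%). CYP81F4, an indole glucosinolate hydroxylase, had 6.9, 14.5, 6.5 and 0.245 CPM, and PAD3, the last enzyme of camalexin synthesis, had 15.5, 159, 43.4 and 17.6 CPM. All 8 tested lectins had differences above 0, and 3 were 2-fold higher (37.5%, beside 3.49% of all genes), among them AT1G52000 with 12.3, 127, 26.5 and 132 CPM; with the rRNA repeats kept, 7 of 8 were above 0 and 1 was 2-fold higher.

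Of 8 tested flowering-time genes, 2 were higher and 1 was lower (37.5%, beside 7.51% of all genes). With the rRNA repeats kept, 1 was higher and 1 lower. MAF5 and AGL31 (MAF2) are members of one chromosome 5 cluster of relatives of the repressor FLC, and they differed in opposite directions: MAF5 had 6.68 CPM in Vash-1 against 0.267 (Altenb-2), 0.512 (Kly-1) and 0.671 (Shigu-2) CPM, and AGL31 had 5.14 CPM in Vash-1 against 19.9 (Altenb-2), 21.1 (Kly-1) and 22.5 (Shigu-2) CPM. In both, the other 3 sets lay close together. MAF3, from the same cluster, had 1.51, 125, 21.5 and 12.8 CPM, and FLC itself had 186, 188, 229.6 and 230.2 CPM, a difference of 0.2. FRI, which activates FLC, had 5.65, 5.49, 6.18 and 15.6 CPM. Of 13 clock genes, 1 was called (7.69%, close to the 7.51% of all genes). It was PRR5, an evening-phased repressor, which was lower with 19.2, 40.3, 50 and 12 CPM.

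Light-harvesting and Rubisco genes, the most abundant lists, contained 1 gene of 19 at 2-fold (5.26%, beside 7.51% of all genes). RBCS1B (AT5G38430), a Rubisco small subunit gene, had 14.8 CPM in Vash-1 against 765 (Altenb-2), 1592 (Kly-1) and 9.86 (Shigu-2) CPM. It was low in both Vash-1 and Shigu-2. Its tandem relatives RBCS2B and RBCS3B had 5182, 4339, 9391 and 7697 CPM and 9334, 9550.4, 5379.8 and 13000.3 CPM, and these near copies may exchange tags, although those first 50 bases again occur once for each. Differences were above 0 in 15 of 19 genes, and in 11 with the rRNA repeats kept. Among genes of core cell functions, 3 of 291 ribosomal protein genes were higher and 5 lower (2.75%), and 5 of 287 pentatricopeptide or tetratricopeptide genes were higher and 4 lower (3.14%). With the rRNA repeats kept, these counts were 3 and 8, and 3 and 2. Of 37 histone genes, many of them near copies, 3 were higher and 4 lower (18.9%), and with the rRNA repeats kept 1 was higher and 3 were lower. No gene of the 6 tested for DNA methylation and silencing was called.

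The core promoters of the chosen genes are described by shares beside those of all tested genes, with no test. TATAAA or TATATA began 40 to 25 bp before the main start in 39.8% of the higher and 36.2% of the lower genes, against 21.8% of all 13823. In a window of the same length 140 to 125 bp upstream, the shares were 3.31, 1.8 and 3.54%. The motif was searched on the gene's strand, and a match is a description, not a site. The chosen genes were less abundant, with a median of 9.14 CPM for the higher and 10.6 CPM for the lower genes over the 4 sets against 19 CPM for all. Within genes of 10 to 30 CPM, the motif was in 41% of 134 higher, 31.9% of 166 lower and 17.9% of all 5111 genes, and above 30 CPM in 40% of 100, 48.4% of 122 and 25.1% of 4925. Their start site clusters were also narrower, with medians of 38.5 bp (higher) and 43.5 bp (lower) against 67 bp, and the peak position held a median of 50.9 and 50.8% of the tags against 39.5%. The part of the lower level in the narrower clusters was not tested.

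Sequence motifs of known regulators were searched in the 250 bp before the main start on either strand. CCGAC, the core of the element bound by cold-response factors, was in 12.6% of higher, 18.4% of lower and 16.2% of all promoters. CACGTG, the G-box, was in 9.32, 11.9 and 10.2%, and TTGACC or TTGACT, read by WRKY factors, in 31.9, 29.7 and 28.5%. The evening element AAAATATCT was in 2.69, 3.42 and 2.73%. TGGGCC, common in promoters of ribosomal and other growth genes, was in 14.5, 16.6 and 21.1%. Genes that do not encode proteins made up 11% of the higher and 10.6% of the lower genes, against 2.14% of all.

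The position of the start within a promoter is also given as a description. The choice of genes used the tags of the same clusters, so a start gained or lost can change level and peak together. The part of this in the shares below was not tested. With at least 50 tags in every set at the main promoter, the peak fell on one base pair in all 4 sets in 50.6% of 255 higher and 49.3% of 304 lower genes, against 63.8% of 12872. The other 3 sets shared a peak and Vash-1 used another in 13.3, 16.1 and 6.71%. The chosen genes also had fewer tags than genes in general, whose part in these shares was not tested. In the 83 chosen genes of this kind, the shift had a median of 10 bp and ranged from 1 to 128 bp, and it was downstream in 50 and upstream in 33. The longest was at AGL31, where Vash-1 started 128 bp upstream of the peak the others shared. FRI in Vash-1 started 36 bp upstream of the shared peak, with a higher level.

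CDPK2 (AT1G35670), a calcium-dependent protein kinase gene with 9.17, 5.87, 4.62 and 41.4 CPM, shows such a shift at one TATA motif, so both windows are printed, with capitals as above:
CDPK2, start shared by the others: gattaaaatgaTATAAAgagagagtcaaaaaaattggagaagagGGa
CDPK2, start in Vash-1: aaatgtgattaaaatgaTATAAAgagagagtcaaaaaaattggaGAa
The windows lie at chr1:13205328-13205374, plus strand and chr1:13205322-13205368, plus strand. The same motif begins 34 bases before the shared start and 28 bases before the Vash-1 start.

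Some genes divided their tags among promoters differently in Vash-1 than in the mean of the other sets. In some of these genes another set was like Vash-1. At a locus of AT3G13440, the share of the gene's tags was 0, 87.3, 92.9 and 0%, so Altenb-2 was like Vash-1. Genes with at least 2 promoter loci and 50 tags in every set were compared by the share of the locus that differed most. This share moved by 30 percentage points or more in 11 of 207 higher and 17 of 244 lower genes. Among all tested genes of this kind it did so in 98 of 9222 (1.06%). The same loci make up the level that chose the genes, so a start gained or lost changes both level and share. These counts are therefore a description only. The part of this in them was not tested, nor was that of the lower tag counts of the chosen genes. GDPD4 (AT1G71340), a glycerophosphodiester phosphodiesterase-like gene, had 21.2 CPM in Vash-1 at a start 28 bp inside the annotated gene start, where the other sets had 0.564 to 0.716 CPM. At the strongest locus of the other sets, 1010 bp inside the annotated start, Vash-1 had 4.2 CPM and the others 6.0 to 10.3 CPM. A locus 70 bp inside had 0.408 CPM in Vash-1 and no listed cluster in the others. The Vash-1 start is printed because it carries the difference:
GDPD4, start in Vash-1: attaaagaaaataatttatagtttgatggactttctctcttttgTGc
It lies at chr1:26888335-26888381, minus strand, and its window holds neither TATA motif.

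In other genes the main start of the other sets was far lower or unlisted in Vash-1. AT3G22235, annotated as a cysteine-rich stress tolerance protein gene, had 2.34 to 2.8 CPM in the 4 sets at a start 3 bp upstream of the annotated one. Its start 115 bp inside had 19.9, 25.6 and 30.4 CPM in the other sets and no listed cluster in Vash-1. AT5G01075, a glycosyl hydrolase family gene, kept a start 64 bp inside, with 5.88, 6.69, 4.03 and 6.15 CPM, and had 18.3, 18.9, 11.4 and 0.937 CPM at one 9 bp upstream of the annotated start. PUR5, of purine synthesis, had 8.95, 8.9, 8.35 and 1.02 CPM at 64 bp inside. At 138 bp inside, PUR5 had 2.32 CPM in Vash-1 against 0.134 CPM in Shigu-2 and no listed cluster in Altenb-2 and Kly-1. GATL2, a galacturonosyltransferase-like gene, had 20.9, 15.7, 23.7 and 0.571 CPM at its start 229 bp inside, but 9.93, 6.18, 7.25 and 5.71 CPM at 109 bp. In AT3G22235, AT5G01075 and GATL2, 1 start was thus close to its level elsewhere while another was far below it.

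**Figure D5:**
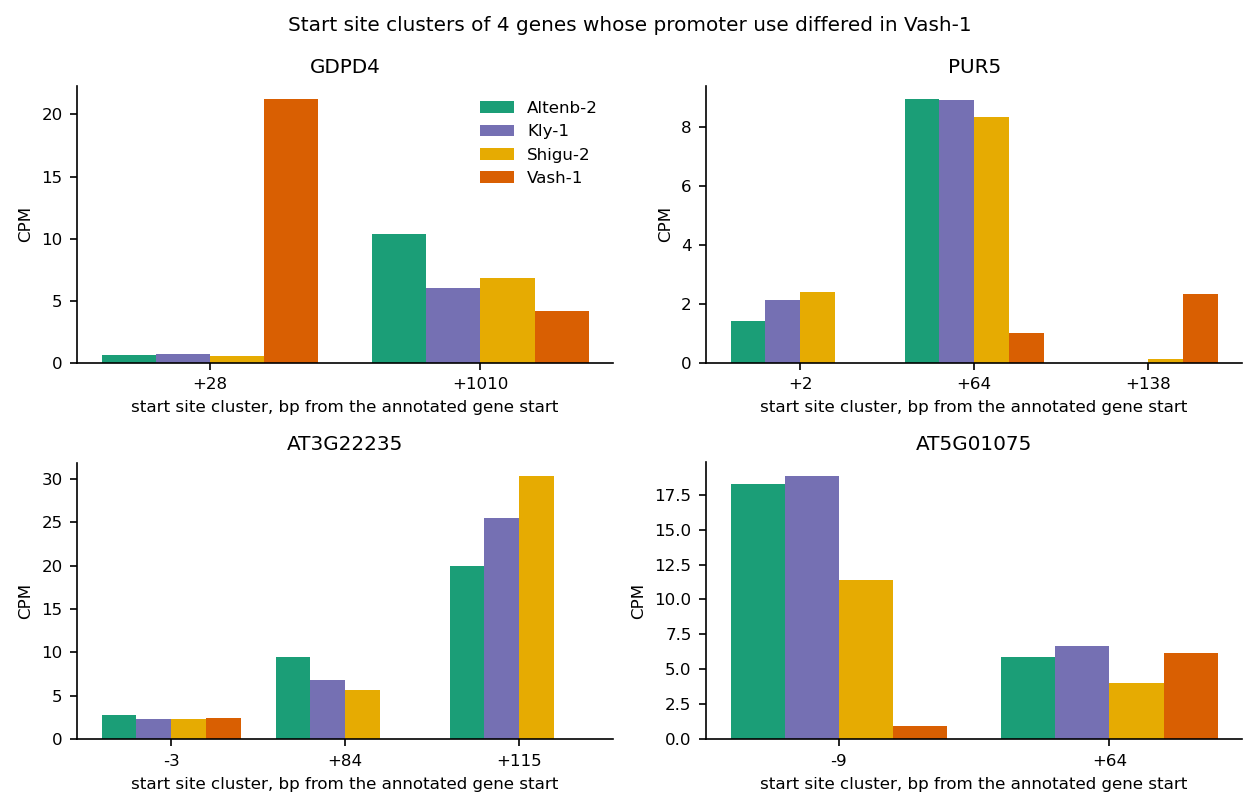
Level (CPM) of each start site cluster with 1 CPM or more in any set, by the distance of its peak from the annotated gene start, in 4 genes with different promoter use in Vash-1. In GDPD4 the Vash-1 bar at +28 reaches 21.2 CPM, and in AT3G22235 the bars at +84 and +115 lack Vash-1.

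In the median, starts inside the genes, past the start codon (or past 200 bp in noncoding genes), differed in the same direction as the promoters. Among genes with 1 CPM or more of such tags in any set, the median difference was 0.95 over 108 higher genes and −0.82 over 106 lower genes, against −0.16 over all 2982. Above 0 were 89 of the 108 and 20 of the 106, beside 1210 of 2982. Some genes may have reached 1 CPM of such tags only in the sets where their promoter was high. The part of this in the medians was not tested. For antisense starts the medians were 0.20 over 43 higher and −0.56 over 51 lower genes, against −0.12 over 857.

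A gene that reached 5 CPM only in its highest set was tested through that set. This favours genes that differ, although not all of them reached 2-fold. The 2-fold threshold divides genes of nearly equal values. Just inside it on the higher side were AT2G38640 (5.79, 7.54, 5.94 and 13.3 CPM) and LTP6, a lipid transfer protein gene (11.9, 16.7, 23.4 and 34 CPM), and just outside was AT1G76820 (2.89, 3.04, 3.12 and 6.52 CPM). On the lower side, GSTU1 (7.48, 14.4, 11 and 5.05 CPM) was just inside and AT1G15002 (7.79, 4.74, 7.44 and 3.02 CPM) just outside.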

How the data were processed

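CAGE tags of pooled libraries were analysed as start site clusters. The authors deposited raw tag counts for each cluster and for its peak position, and the peak's share of the cluster as a fraction. Cluster ends, widths and peaks are bp positions. The submitters' processing notes name STAR 2.7.9a. The sources used here do not give the genome build, filters, clustering rule or handling of multiple matches. The members and lists were chosen with earlier results of these data known.

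Clusters of all sets that overlapped by 1 bp on a strand were joined into loci, and a locus was given to the gene whose window, from 500 bp upstream of the annotated start (TAIR10.1) to its most upstream start codon, held its strongest peak. For noncoding genes the window ended 200 bp past the start. Tags per gene were summed and scaled to 1000000 tags (CPM) outside chromosome 2, 1 to 10945, and chromosome 3, 14192677 to 14204916. Genes at 5 CPM in any set were compared on log2(CPM + 0.5) at 2-fold. Exact binomial intervals (95%) cover counting error only. The labels describe replicate libraries, but the sets carry none, so the planned tests were not run.

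Named genes were the 12 highest and 12 lowest beyond every other set, up to 4 per list or keyword family by size of difference, neighbouring runs, genes unlisted in Vash-1, genes at the threshold and promoter switches. Others were named after their values were seen. Some genes and sequences are not reported here. Keyword families were taken from annotated product names, and the patterns for defensins and receptor kinases were corrected after a first run. The calling steps were tested on simulated data. Python 3.11.15, pandas 2.3.3 and, for TMM scaling, edgeR 4.0.16 were used.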

Additional observations from a re-analysis of the deposited data

How the results depend on the processing

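No paired analysis was possible because each accession is a single pooled set that carries no replicate, and leaving out replicates could not be done for the same reason. Over 15 alternatives, 1 of them (placing each cluster by its own peak) chosen after seeing the data, the counts of genes higher and lower stayed within 1.5 times of their values, as did those beyond every other set over the 11 under which they were computed, except as follows. With the rRNA repeats kept in the scaling, 245 genes were higher and 94 above every other set, the higher share of chosen genes went from 46.5 to 32%, and the median difference of all genes moved by −0.18. With no minimum level, 787 were higher and 337 above every other set. With a minimum of 20 CPM, 231 were higher, 267 lower, 94 above every other set and 113 below every other set, since fewer genes are tested. Against the pooled count of the other sets, 381 were higher and 691 lower, within 1.5 times but with a higher share of 35.5%. Of 135 named genes, 131 kept their direction throughout. SNC1 turned to −0.25 against the pooled count and −0.87 without Kly-1, and PDF1.2, where Kly-1 alone of the other sets was high, to −0.0451 against the pooled count. UGT74B1 turned to −0.11 without Altenb-2, and AT5G53360 to −0.13 without Kly-1. The set left out was the lowest of the others in SNC1, UGT74B1 and AT5G53360. Each set is 1 pool, so no value has a replicate error.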

Other observations

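SADHU elements, short noncoding retroelements of plants whose expression is known to differ among accessions, were looked at after their values were seen. Of 10 at 5 CPM or more, 5 were higher and 2 lower in Vash-1 (70%, beside 7.51% of all genes, with no weight as they were picked for their values), and with the rRNA repeats kept 3 were higher and 1 lower. SADHU10-1 had 19.4 CPM in Vash-1 against 0.401 (Altenb-2), 0.478 (Kly-1) and 0.671 (Shigu-2) CPM, and SADHU1-2 had 35.6 CPM in Vash-1 against 1.07 (Altenb-2), 5.73 (Kly-1) and 0.457 (Shigu-2) CPM. Both lay above every other set. SADHU3-2 had 21.9, 0, 28.8 and 37.6 CPM and SADHU7-1 7.43, 0, 0 and 6.32 CPM, both without a listed cluster in Kly-1. SADHU5-2 had 6.81, 0, 6.31 and 0 CPM, absent from the lists of Kly-1 and Vash-1. For each element named here, the first 50 bases downstream of the main start occur once in the reference.

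Other genes above every other set, also named after their values were seen, included the nematode resistance-like gene HSPRO2 with 79.9, 8.8, 3.3 and 165 CPM, where Altenb-2 was high as well, the lipid transfer protein gene LTP4 with 16.8, 2.83, 18.7 and 98.6 CPM, the peroxidase PRXCA with 41.7, 21.3, 15.3 and 117 CPM and the protease inhibitor-like DR4 with 20.2, 13.8, 12 and 115 CPM. Genes below every other set included the germin-like GER3 with 154, 222, 252 and 58.3 CPM and the transporter DTX35 with 143, 114, 157 and 26.2 CPM.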
